A study of Mus musculus with 5 samples.

Results

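Solute carriers were measured in a culture of mouse macrophages, grown from bone marrow, that was turned into osteoclasts. Osteoclasts are large bone-resorbing cells with several nuclei. Members were the genes whose symbol in the platform annotation is Slc with a number or begins with Slco. Each needed a row of the array that names it alone, and its mean over the 5 arrays had to reach the level filter of 4.89 on the log2 scale. Of 376 such symbols, 206 reached the filter. Of 13 that the rule sets aside by name, 12 were among those 206, which left 194 members of 12049 genes at or above the filter, called measured genes below, and of 22180 genes with a row of their own. Those set aside, among them Slc9b2, Slc40a1, Slc7a11 and Slc3a2, are used only in a check of how the counts depend on the choice of members. The filter is the median of all row means, so the levels chose the members and are not a finding about them. Just inside lay Slc34a1 at a mean of 4.91, Slc22a13b at 4.92 and Slc22a12 at 4.96, and just outside lay Slc23a3, Slc25a48 and Slc1a6, all at 4.88. Of the 194, 5 carry a carrier's name without being transporters: the scaffold proteins Slc9a3r1 and Slc9a3r2, Slc4a1ap, Slc7a6os and the pseudogene Slc2a4rg-ps.

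Solute carriers are membrane proteins that move sugars, amino acids, ions, metals, nucleotides and metabolites down a gradient or against it by coupling to another solute. Most sit in the plasma membrane, and others in mitochondria, lysosomes, the Golgi or the endoplasmic reticulum. In the osteoclast they are known above all for ion and acid-base balance, since protons secreted onto bone leave bicarbonate behind in the cell, which is exchanged for chloride.

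The day 5 culture, which the labels call mature osteoclasts, the differentiating cultures of days 3, 2 and 1 and the day 0 macrophages all came from wild-type mice of 10 weeks. They were grown on plastic with 20 ng/ml M-CSF, which sustains macrophages, and 30 ng/ml RANKL, which drives osteoclast formation, for 0 to 5 days. Each day had 1 Affymetrix array, made from 5 ng of total RNA, and whether animals were pooled is not given in the sources used here. With no replicates there is no test and no p-value, every difference compares single arrays, and RANKL cannot be told apart from time in culture because cultures kept without it were not analysed here. Precision is limited by having 1 array a day. All values below are log2 values after robust multi-array averaging (RMA) or differences of them, the later day minus the earlier. A gene is counted at a difference of 1 or more, which is 2-fold.

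Array medians lay between 4.88 and 4.92. The labels were checked against marker lists: all 7 osteoclast markers stood 2-fold or more above day 0 at day 5, with a median difference of 6.003. Of 6 macrophage markers 0 were higher and 1 lower at day 5, but 3 were at least 2-fold lower at day 1 than at day 0. The log2 of their summed linear level was 14.62, 13.86, 13.92, 14.31 and 14.36 at days 0, 1, 2, 3 and 5. Of 7 granulocyte markers 4 stood 2-fold or more below day 0 at day 5, and their summed level lay between 9.46 and 10.77. Of 3 measured stromal and osteoblast markers only Dcn reached 2-fold, with 5.20, 8.45, 8.44, 7.99 and 7.13 at days 0, 1, 2, 3 and 5, and the part of stromal cells in the values below was not tested. The osteoblast factor Sp7 was at 3.96 on every array. No B or T cell marker reached the filter. Of 4 erythroid markers with a row, Klf1, Epor and Ermap did not reach it. Tal1 did, with 6.40, 5.80, 5.91, 5.91 and 5.91 at days 0, 1, 2, 3 and 5, and the part of erythroid cells was not tested. Of 2 measured endothelial markers Cdh5 was 2-fold lower at days 1 and 5 than at day 0, with 6.96, 5.67, 5.46, 5.43 and 5.67, and the part of endothelial cells was not tested. In bulk RNA, fewer cells of a type and less RNA per cell cannot be told apart. As a yardstick of measurement noise, the day 5 minus day 0 difference of 2 rows of the same gene disagreed by a root mean square of 0.60 over 426 genes, or 0.42 per row. Both rows lie on the same arrays. The yardstick thus covers neither an error shared by a whole array nor the spread between cultures.

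At day 5 against day 0, 18 of 194 solute carriers were at least 2-fold higher, 12 at least 2-fold lower and 164 neither. This is 9.28% higher and 6.19% lower, beside 6.78% higher and 6.56% lower among all measured genes. The members' median difference was -0.0052 (0.033 with arrays centred on their medians), with quartiles of -0.36 and 0.31, beside a median of 0.00 and quartiles of -0.31 and 0.25 over all measured genes. Shares and medians of the members thus lay near those of all genes. Centring the arrays on the median level of 12 reference genes, which was 0.14 higher at day 5 than at day 0, gave 14 higher and 14 lower, and centring them on their own medians gave 20 higher and 10 lower. The median of the 12 genes' own differences was -0.0046, so the 0.14 depends on how the reference genes are summarised. Of the 30 counted members, 7 passed 2-fold by under 0.1. The calls of these 7 are the least firm. Of the 18 higher members 3 were below the filter at day 0 and of the 12 lower ones 1 was below it at day 5, where RMA compresses differences.

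**Figure D1:**
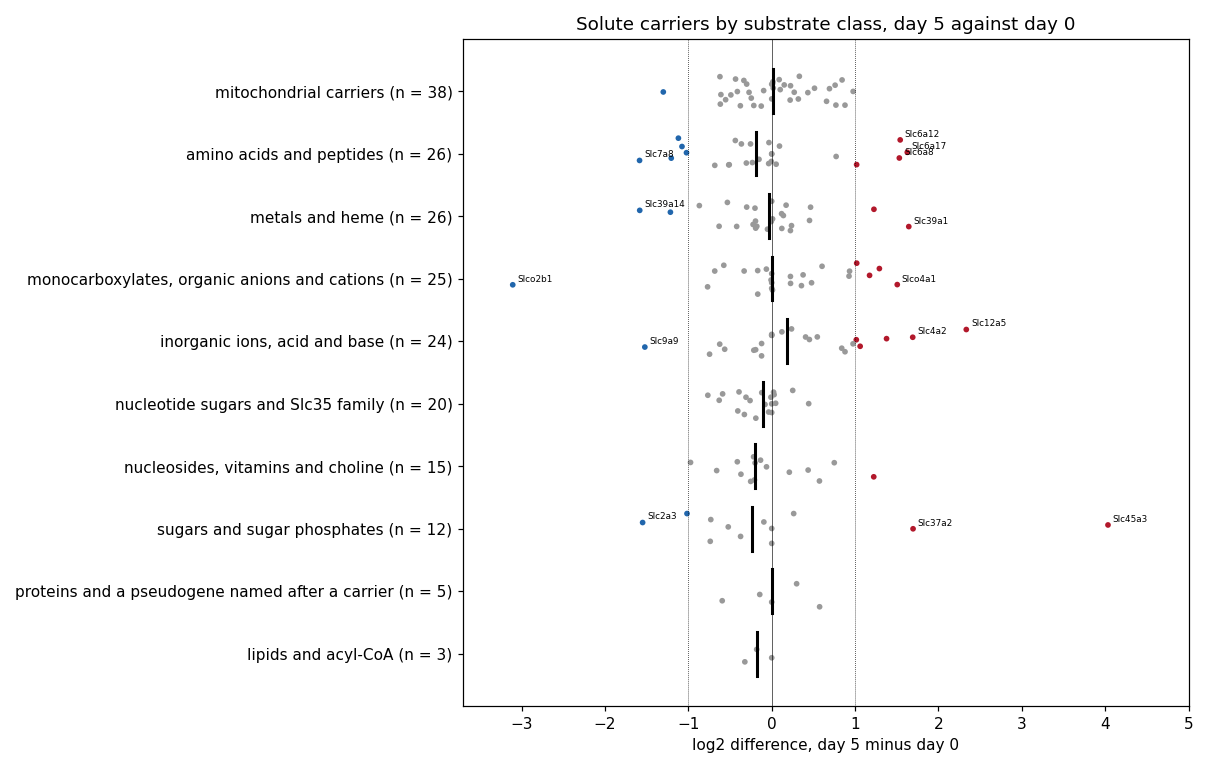
Log2 difference of day 5 minus day 0 for each of the 194 solute carriers, by substrate class, with 1 point per gene and black bars at the class medians. Dotted lines mark 2-fold, and points beyond them are red for the 18 higher and blue for the 12 lower genes; class medians lie between -0.23 and 0.18.

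Among carriers of sugars and sugar phosphates 2 of 12 stood 2-fold or more above day 0 at day 5, 2 stood as far below and 8 did neither, with a class median of -0.23. Slc45a3, called prostein and known as a prostate-enriched member of a sugar transporter family, had the largest difference of all members, also with values below the filter set to it. It started below the filter, with 4.67, 6.56, 8.15, 8.98 and 8.71 at days 0, 1, 2, 3 and 5, which makes day 5 at least 14.1-fold higher when day 0 is set to the filter. It stood higher on each array up to day 3 and slightly lower at day 5. Slc37a2, a sugar phosphate carrier of the endoplasmic reticulum that is also known in osteoclast lysosomes, had 10.37, 9.83, 11.48, 12.07 and 12.07. It was lowest at day 1 and gained most between days 1 and 2, by 1.65.

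Glucose uptake genes were not among the higher members. Slc2a3, the neuronal-type glucose transporter GLUT3, had 6.51, 6.40, 5.60, 4.77 and 4.96 on the 5 arrays, a difference of -1.55 at day 5 that built up between days 1 and 3. Slc2a9, a urate transporter, had 6.50, 5.79, 5.50, 5.79 and 5.49, most of its -1.02 being present at day 1. Slc2a1, the widespread glucose transporter GLUT1, was at -0.73 with 11.36, 11.22, 11.02, 10.42 and 10.63, so it was under 2-fold. Its second row, below the filter, differed by -0.23. No gene with an Slc2 symbol, of 6 measured, was above its day 0 value at day 5. The only equal one is the pseudogene named above, which encodes no transporter.

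Carriers of inorganic ions, acid and base had a class median of 0.18, the highest at this filter but 0.061 with the filter at the 75th percentile, with 5 of 24 at least 2-fold higher, 1 lower and 18 neither. Slc4a2, the chloride-bicarbonate exchanger AE2 that removes bicarbonate from acid-secreting osteoclasts, had 8.998, 8.86, 10.29, 10.71 and 10.69 at days 0, 1, 2, 3 and 5. Days 0 and 1 were close, and the gain of 1.43 came between days 1 and 2. Slc12a5, the potassium-chloride cotransporter KCC2 known from neurons, had 4.75, 5.34, 5.99, 6.96 and 7.09 and was at least 4.59-fold higher at day 5 when day 0 is set to the filter. It started below the filter and was higher on every later array. Slc9b1, a sodium-proton exchanger known from sperm, had 4.61, 4.43, 5.73, 6.03 and 5.99, and the urea transporter Slc14a2 had 4.97, 4.58, 5.32, 6.0 and 6.03. Slc9b1 was below the filter at days 0 and 1. It was at least 2.14-fold higher at day 5 when day 0 is set to the filter. Slc14a2 started just above the filter and was below it at day 1. Both genes were lowest at day 1. The 1 further higher gene, Slc20a2, was named after its values were seen. It encodes the phosphate importer PiT-2 and had 7.87, 8.99, 9.04, 8.87 and 8.88, with its whole difference present at day 1. The other phosphate importer, Slc20a1 or PiT-1, was at -0.62 with 8.29, 8.40, 8.48, 7.56 and 7.67, all of it after day 2. The sodium-potassium-chloride cotransporter Slc12a2 at 0.41 and Slc26a11, a sulfate and chloride transporter, at -0.19 were neither.

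The single lower ion carrier was Slc9a9, the sodium-proton exchanger NHE9 of endosomes, with 10.85, 7.53, 7.66, 9.13 and 9.33. It differed by -3.32 at day 1 against day 0 and stood 1.80 above day 1 at day 5. Its Golgi relative Slc9a7, NHE7, had 8.12, 6.83, 7.60, 8.68 and 8.67, also lowest at day 1 but higher at days 3 and 5 than at day 0. Over the 5 arrays these exchangers thus shared a low point at day 1 and differed in where they ended.

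**Figure D2:**
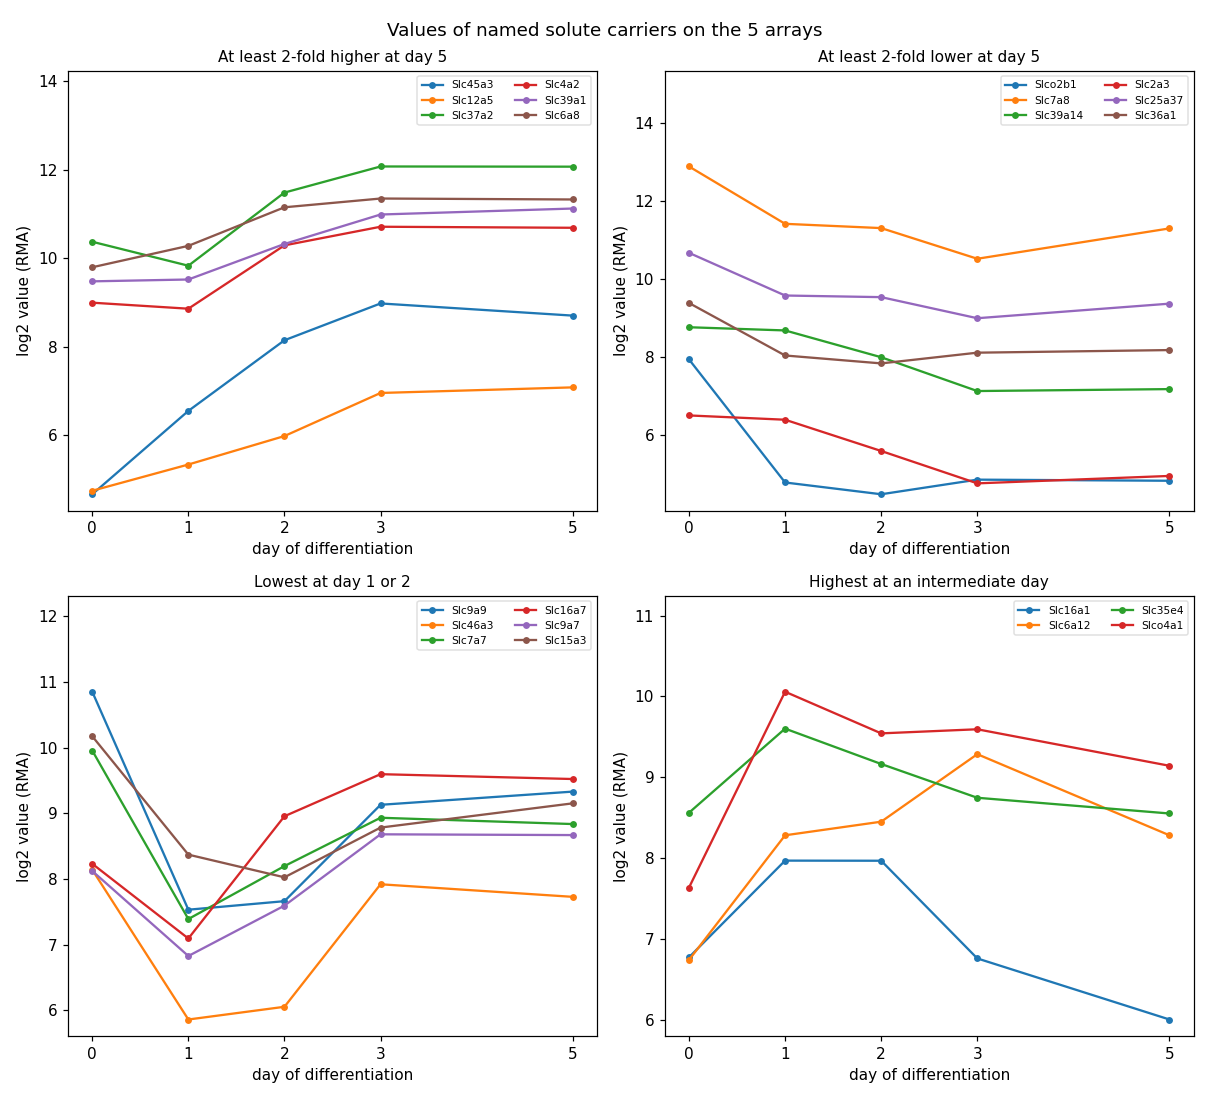
Log2 values of 22 named solute carriers on the arrays of days 0, 1, 2, 3 and 5, with 1 array per day, grouped by shape. Genes in the upper left panel gain mainly between days 1 and 3. Of other members higher at day 5, Slco4a1, Slc6a12 and Slc20a2 had their whole difference by day 1. Genes in the lower left panel are lowest at day 1 or 2 and stand higher again by day 3.

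Amino acid and peptide carriers split, with 4 of 26 higher by 2-fold or more, 5 lower and 17 neither (median -0.19). The higher ones included 3 of the 5 measured Slc6 genes, a sodium- and chloride-coupled family. Slc6a17, a vesicular carrier of neutral amino acids in neurons, had 5.29, 5.61, 6.93, 7.38 and 6.91. Slc6a8, the creatine transporter, had 9.80, 10.28, 11.15, 11.35 and 11.33, and its values at days 2, 3 and 5 were close together. Slc6a12, which takes up the osmolyte betaine and GABA, had 6.74, 8.28, 8.45, 9.29 and 8.28 and was highest at day 3. Slc38a6 of the glutamine transporter family was the fourth at 1.02, just past 2-fold.

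The lower amino acid carriers had most of their difference at day 1, apart from Slc16a10. Slc7a8, the neutral amino acid exchanger LAT2, had 12.88, 11.42, 11.31, 10.52 and 11.30 and had the most negative difference of the class at -1.59. Slc36a1, a proton-coupled amino acid carrier of lysosomes, had 9.39, 8.05, 7.84, 8.12 and 8.18, and Slc15a3, a lysosomal carrier of histidine and peptides, had 10.18, 8.37, 8.03, 8.78 and 9.15. Slc36a1 stayed near its day 1 value, while Slc15a3 stood 0.78 above it at day 5. Slc7a7, which exports cationic amino acids and is known for its role in macrophages, had 9.96, 7.39, 8.20, 8.93 and 8.84. It was -2.57 at day 1 against day 0 and 1.45 at day 5 against day 1. Slc16a10, a carrier of aromatic amino acids, had 10.01, 9.74, 9.37, 8.85 and 8.94 and was lower on each array up to day 3.

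Metal and heme carriers had 2 of 26 higher by 2-fold or more, 2 lower and 22 neither (median -0.028, which centring on array medians turned to 0.0096). All 4 counted genes belong to the Slc39 or ZIP family, which makes up 13 of the 26. This family brings zinc and other metals into the cytosol. Slc39a1, the plasma membrane zinc importer ZIP1, had 9.48, 9.52, 10.32, 10.99 and 11.12, with days 0 and 1 alike and a gain from day 2 on. Slc39a13, a zinc carrier of the secretory pathway known from connective tissue disease, had 7.18, 7.32, 8.04, 8.75 and 8.41 and was highest at day 3. Slc39a14, which carries zinc, manganese and iron, had 8.77, 8.69, 8.001, 7.14 and 7.19, close to day 0 at day 1 and lower after it. Slc39a8, which carries zinc and manganese, had 7.53, 6.60, 6.57, 6.04 and 6.31, with most of its difference present at day 1. The gut zinc importer Slc39a4 held the only 2-fold lower value between days 1 and 2, at -1.01, and was back at day 5 with 8.43, 8.68, 7.67, 8.24 and 8.38. The 6 measured zinc exporters of the Slc30 family all lay between -0.19 and 0.47 at day 5 against day 0.

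Carriers of monocarboxylates, organic anions and cations had 4 of 25 higher by 2-fold or more, 1 lower and 20 neither (median 0.0091, but -0.13 with centring on the reference genes and 0.66 under the stricter filter). Slco2b1, which takes up steroid sulfates and other organic anions, had the most negative difference of all members, also with values below the filter set to it. Its values were 7.95, 4.80, 4.49, 4.87 and 4.84, so it was above the filter at day 0 only and reached the members through that array. Set against the filter, it was at least 8.33-fold lower at day 5. A second row for Slco2b1 stayed between 4.30 and 4.34 on all arrays, below the filter, and the mean of both rows gave -1.55. Slco4a1, a relative that carries thyroid hormone and prostaglandins, had 7.64, 10.06, 9.54, 9.59 and 9.14, with its highest value at day 1. Slco3a1, another relative, had 6.40, 7.20, 7.22, 7.20 and 7.58. The vesicular polyamine carrier Slc18b1 was just past 2-fold at 1.02.

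The lactate and pyruvate carriers went apart. Slc16a7, the high-affinity carrier MCT2, had 8.23, 7.09, 8.96, 9.60 and 9.52 and was 2.43 above its day 1 value at day 5, the largest difference of any member between those days. Slc16a1, or MCT1, had 6.77, 7.97, 7.97, 6.76 and 6.01, highest at days 1 and 2, and was -1.96 at day 5 against day 1. Slc16a3, the lactate exporter MCT4, was under 2-fold at -0.68 with 7.51, 7.59, 6.87, 6.57 and 6.82, and a row it shares with Csnk1d was 9.49 on every array. Slc16a6 had 8.42, 8.36, 9.03, 7.99 and 7.85 and gave 1 of the 2 members that were 2-fold lower between days 2 and 3, the other being Slc16a1.

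Mitochondrial carriers were the largest class, with 0 of 38 higher by 2-fold or more, 1 lower and 37 neither (median 0.012, which centring on the reference genes turned to -0.13). The lower one was Slc25a37, mitoferrin 1, which brings iron into mitochondria, with 10.67, 9.58, 9.54, 9.0 and 9.37. Most of its difference of -1.30 was present at day 1. The highest was Slc25a43, an orphan carrier, at 0.98 with 8.02, 8.67, 9.14, 9.35 and 8.99. Slc25a5, the ADP-ATP exchanger ANT2, had 10.45, 10.84, 10.99, 11.15 and 11.14, 0.69 at day 5, higher on each array up to day 3. Slc25a42, which imports coenzyme A, had 6.51, 6.37, 6.58, 7.97 and 7.02, with a single high value at day 3.

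In the remaining classes few members reached 2-fold. Among carriers of nucleosides, vitamins and choline 1 of 15 was higher, 0 lower and 14 neither (median -0.20). The higher one was the folate transporter Slc46a1, with 8.0, 8.14, 8.54, 8.96 and 9.22, which was higher on each successive array. Its relative Slc46a3, a lysosomal carrier, had 8.14, 5.86, 6.05, 7.92 and 7.73, ending at -0.41 against day 0 after standing at -2.28 on day 1. The ascorbate transporter Slc23a2 was lowest of the class at -0.97, with 8.76, 8.25, 7.94, 7.70 and 7.78, and its second row differed by -0.37. The lysosomal nucleoside carrier Slc29a3 was at 0.44 with 9.72, 9.90, 10.28, 10.39 and 10.16. Its second row, below the filter, held the same value at days 0 and 5. A row it shares with Gm15466 went the other way, at -0.30 with 8.56, 9.07, 8.71, 7.84 and 8.26.

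Of 20 measured Slc35 genes, a family best known for bringing nucleotide sugars into the Golgi and endoplasmic reticulum, 0 reached 2-fold either way at day 5 (median -0.10). They ran between -0.77 for Slc35b4, a carrier of UDP-sugars, and 0.44 for Slc35f5. Within them Slc35e4 peaked at day 1, with 8.56, 9.60, 9.16, 8.75 and 8.55, and a second row peaked there too, by 0.55 over day 0. The 3 lipid and acyl-CoA carriers lay between -0.32 for the fatty acid transport protein Slc27a1 and 0.00 for the acetyl-CoA carrier Slc33a1. The 5 genes named after a carrier lay between -0.59 for Slc9a3r1 and 0.57 for Slc7a6os.

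By step, the first day held the most lower calls. Between days 0 and 1, 6 members were at least 2-fold higher and 14 lower, 3.09% and 7.22% beside 2.91% and 4.17% of all measured genes. Between days 1 and 2, 6 were higher and 1 lower, beside 2.46% and 0.556% of all genes, and between days 2 and 3, 5 were higher and 2 lower, beside 2.08% and 3.91%. Between days 3 and 5, 0 were higher and 1 lower, beside 0.158% and 0.116%. The single one was Slc6a12 at -1.003. Centring on the reference genes gave 3 higher between days 0 and 1 and 5 lower between days 2 and 3. It left 0 lower between days 1 and 2, and 1 higher and 0 lower between days 3 and 5. Centring on array medians also left 0 lower in both of those steps. The higher count between days 0 and 1 rose when the genes set aside by name were included, as given further below. Adjacent steps share an array, so a value low or high on 1 array enters both with opposite sign.

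**Figure D3:**
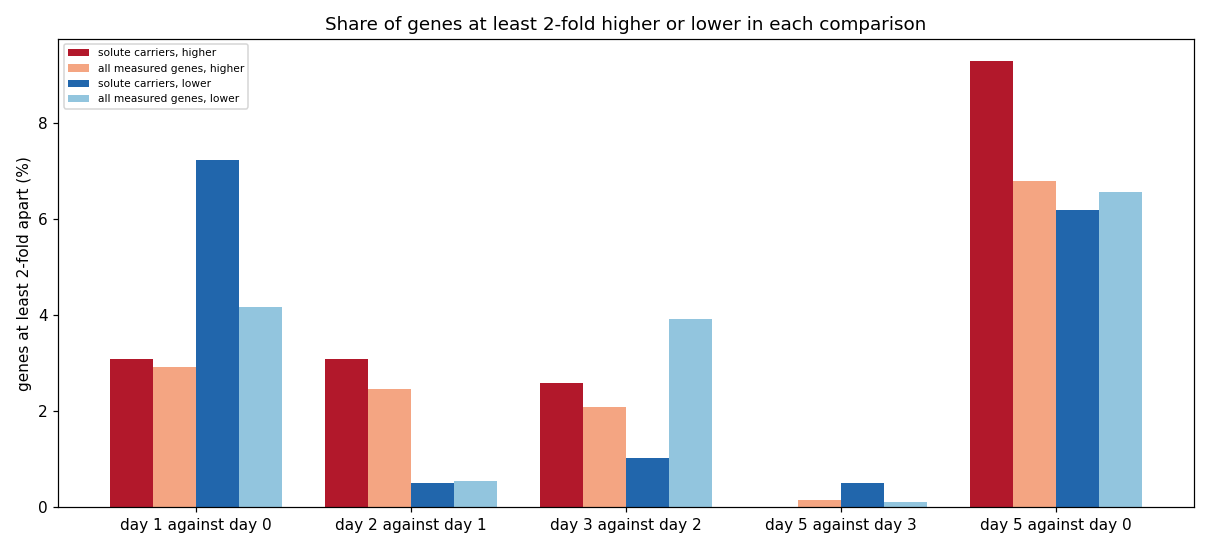
Share of genes at least 2-fold higher or lower, in percent, for each step between sampled days and for day 5 against day 0. Dark bars are the 194 solute carriers and light bars all 12049 measured genes; the lower share at day 1 is 7.22% for solute carriers and 4.17% for all genes, and the lower share between days 2 and 3 is 1.03%, or 2 members, and 3.91%, with 5 members once arrays are centred on the reference genes.

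The span of the 5 values reached 1 in 62 members, or 32%, beside 25.8% of all measured genes. The largest single step of these 62 was from day 0 to day 1 in 29, from day 1 to day 2 in 18, from day 2 to day 3 in 14 and from day 3 to day 5 in 1. In 75 members all values lay within 0.5. Neither count was made for all measured genes, of which 3113 spanned 1 or more. These counts thus cannot be read as a trait of solute carriers. The 5 arrays gave 17 members, or 8.76%, the same value at day 5 and day 0, an outcome of median polish that 964 of 12049 measured genes shared. Of the 18 members higher at day 5, 4 were already 2-fold higher at day 1 and 15 at day 3. Of the 12 lower members, 7 were already 2-fold lower at day 1 and 11 at day 3. Of all measured genes higher at day 5, 21.8% were so at day 1 and 87.6% at day 3, and of those lower at day 5, 33% were so at day 1 and 88.9% at day 3. The members' 22.2% and 83.3% of higher genes lay near these shares. Of the 12 lower members 58.3% were lower at day 1 and 91.7% at day 3, and the differences from all genes were not tested.

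Of the 14 members at least 2-fold lower at day 1, 12 were above their day 1 value at day 5, 6 of them by 2-fold or more. This is 85.7% and 42.9%, beside 72.8% and 23.5% of the 503 measured genes that were lower at day 1. Genes chosen for a low day 1 value are here set against that same array, and the difference in shares was not tested. At day 5, 6 of the 14 were within 2-fold of day 0, 7 still at least 2-fold lower, and Slc16a7 was 2-fold higher. A trough at day 1, at least 1 below both day 0 and day 5, was seen in 6 members, Slc46a3, Slc9a9, Slc7a7, Slc9a7, Slc16a7 and the copper carrier Slc31a2, the last named after its values were seen. Slc15a3 had its trough at day 2. Such troughs were found in 0.722% of all measured genes at day 1, in 0.888% at day 2 and in 0.0747% at day 3, where no member had one. Slc31a2 had 7.95, 6.93, 7.30, 7.88 and 8.12, so its day 5 value was close to that of day 0. Of the 6 macrophage markers Mertk, Fcgr1 and Adgre1 were also at least 2-fold lower at day 1: Mertk had 10.07, 7.24, 7.45, 9.34 and 9.65 and Fcgr1 had 10.75, 7.14, 6.57, 7.57 and 8.21. The part of macrophage content or of the day 0 array in these troughs was not tested. Peaks at least 1 above both ends were fewer, with Slc16a1 and Slc35e4 at day 1, Slc6a12 at day 3 and none at day 2. Of all measured genes 0.963% peaked so at day 1, 0.141% at day 2 and 0.0498% at day 3.

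**Figure D4:**
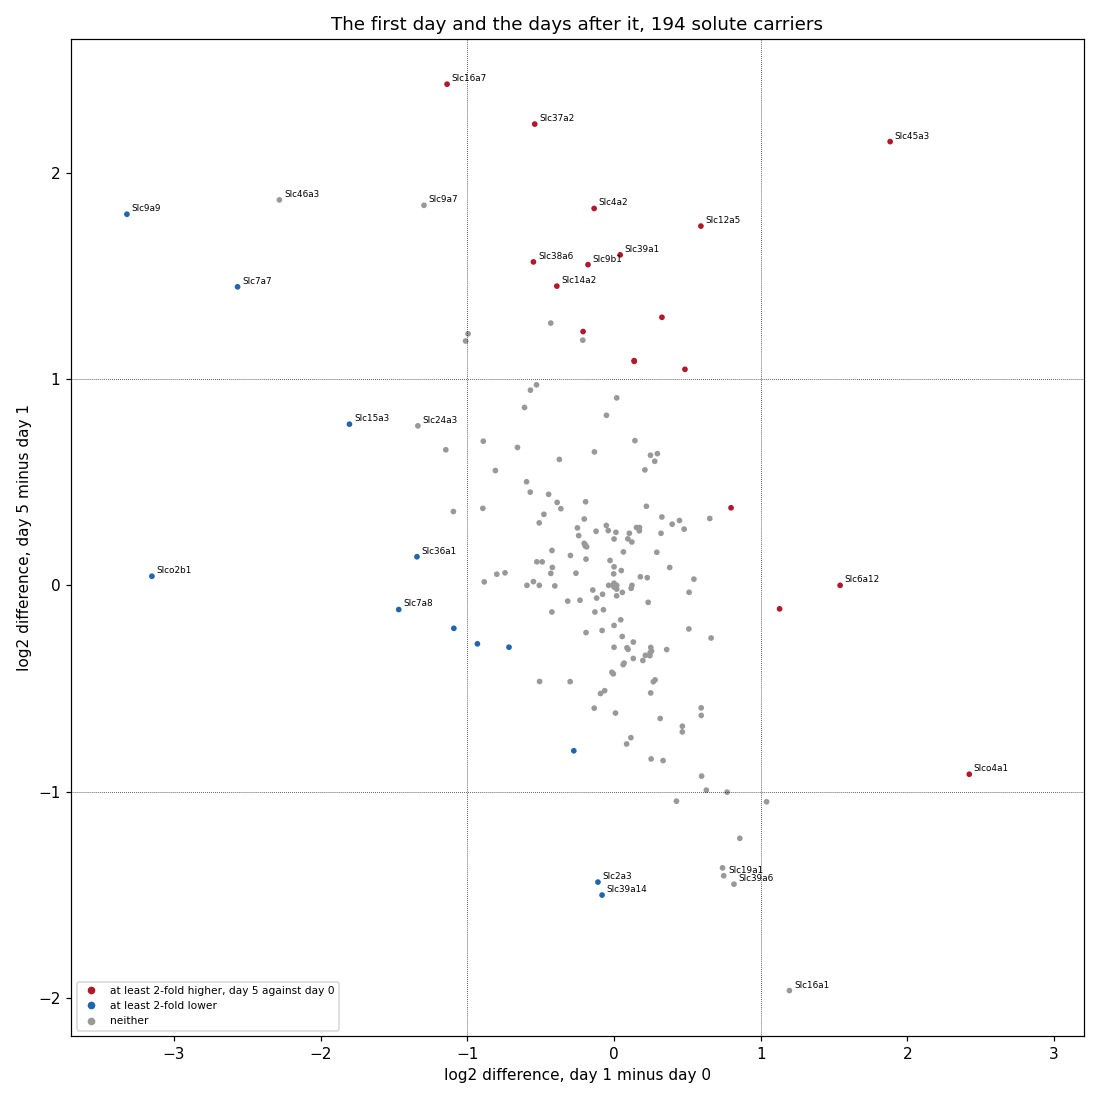
Log2 difference of day 1 minus day 0 against that of day 5 minus day 1 for 194 solute carriers, with dotted lines at 2-fold. Both axes use the day 1 array, so they are not independent; Slc9a9, Slc46a3, Slc7a7, Slc9a7 and Slc16a7 lie in the upper left, low at day 1 and higher again at day 5.

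With day 1 in place of day 0 as the starting point, 22 members stood 2-fold or more higher at day 5 and 10 stood as far lower, beside 6.30% and 6.73% of all measured genes. Of these, 14 of the 22 and 2 of the 10 were also counted against day 0. Slc45a3 at 2.15, Slc37a2 at 2.24 and Slc4a2 at 1.83 were higher from both starting points, and Slc39a14 at -1.501 and Slc2a3 at -1.44 lower from both. Slc9a9, Slc7a7 and Slc15a3 were below day 0 but above day 1, so their direction depends on which early array is used. Slc36a1 was at 0.14, Slco2b1 at 0.04 and Slc7a8 at -0.12, all within the yardstick of 0. Slco4a1, higher than at day 0, was -0.92 against day 1.

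Promoters of 5 members that differed by 2-fold or more at day 5 are shown so that the sequence can be read beside the course of the gene: the highest and the lowest member and 3 with a motif match, chosen after their matches were seen. RefSeq windows of 300 bases of build GRCm38.p6, with 250 bases before and 50 after each start site, were at hand for 152 of the 194 members, with several windows for some. They were searched on both strands for the E-box CACGTG, the AP-1 motif TGANTCA, the PU.1 motif GAGGAAGT and the short NFAT core GGAAA. Capitals mark matches to the E-box, AP-1 or PU.1 letters. Slc45a3 lies at chr1:131962665-131962964 on the plus strand (first of 2 windows), Slc37a2 at chr9:37255689-37255988 on the minus strand, Slc9a9 at chr9:94669642-94669941 on the plus strand, Slco2b1 at chr7:99711291-99711590 on the minus strand (first of 3) and Slc36a1 at chr11:55204090-55204389 on the plus strand.
Slc45a3: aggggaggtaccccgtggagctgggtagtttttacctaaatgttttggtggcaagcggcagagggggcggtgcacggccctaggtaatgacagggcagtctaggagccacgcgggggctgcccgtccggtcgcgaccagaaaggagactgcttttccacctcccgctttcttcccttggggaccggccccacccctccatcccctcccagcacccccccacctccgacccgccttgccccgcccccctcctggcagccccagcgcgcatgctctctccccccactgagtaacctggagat
Slc37a2: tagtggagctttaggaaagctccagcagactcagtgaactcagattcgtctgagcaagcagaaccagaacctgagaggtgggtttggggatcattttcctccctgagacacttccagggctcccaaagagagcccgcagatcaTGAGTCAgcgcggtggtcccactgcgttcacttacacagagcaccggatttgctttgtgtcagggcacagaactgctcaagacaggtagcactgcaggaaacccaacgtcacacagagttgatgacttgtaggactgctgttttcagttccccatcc
Slc9a9: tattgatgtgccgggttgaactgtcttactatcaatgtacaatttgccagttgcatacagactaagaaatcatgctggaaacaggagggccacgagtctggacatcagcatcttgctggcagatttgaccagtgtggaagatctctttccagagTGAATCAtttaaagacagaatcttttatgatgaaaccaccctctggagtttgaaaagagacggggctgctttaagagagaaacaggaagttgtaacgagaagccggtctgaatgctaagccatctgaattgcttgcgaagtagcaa
Slco2b1: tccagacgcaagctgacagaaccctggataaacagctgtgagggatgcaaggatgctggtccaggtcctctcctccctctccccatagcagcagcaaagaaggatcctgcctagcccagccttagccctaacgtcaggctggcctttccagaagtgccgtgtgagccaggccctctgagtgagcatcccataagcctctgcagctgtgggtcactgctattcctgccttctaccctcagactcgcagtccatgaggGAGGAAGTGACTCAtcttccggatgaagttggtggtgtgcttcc
Slc36a1: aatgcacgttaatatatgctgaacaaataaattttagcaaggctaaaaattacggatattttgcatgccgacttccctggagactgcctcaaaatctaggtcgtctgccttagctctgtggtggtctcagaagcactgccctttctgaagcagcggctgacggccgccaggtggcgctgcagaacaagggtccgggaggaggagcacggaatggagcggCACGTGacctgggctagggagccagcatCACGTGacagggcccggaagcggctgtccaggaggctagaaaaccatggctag

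In Slc37a2 the AP-1 match began at -107 from the start site, and in Slc9a9 at -96. In Slco2b1 a PU.1 match at 7 and an AP-1 match at 14 bases past the start overlapped by 1 base. Slc36a1 held E-box matches at -31 and -3, and neither window of Slc45a3 held any of the 3 motifs. Over members with a window, 14 of 152 held the AP-1 motif, 9.21% beside 8.97% of 27025 genes. Among the 13 higher members with a window 4 held it, and among the 8 lower ones 3. The E-box was in 27 of 152 members, 17.8% beside 8.09% of all genes, of which 1 was a higher and 2 were lower members. The PU.1 motif was in 8 members, 5.26% beside 3.69%, and the NFAT core in 93, 61.2% beside 64.4%. The 152 members had 208 windows and the 27025 genes 32851, so a member had more chances of a match. Per window the AP-1 share was 7.21% beside 7.81% and the E-box share 13.9% beside 7.15%. The PU.1 share was 3.85% beside 3.2%, and that of the NFAT core 54.3% beside 61.3%. What kinds of gene make up the 27025 was not examined. A match is a description of the letters, not a bound site.

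Carriers known under other symbols, and the pumps that supply their gradients, were set beside the members. Of 23 measured carriers under other symbols 3 were higher by 2-fold or more at day 5, 1 lower and 19 neither (median 0). Among all measured genes 6.78% were higher and 6.56% lower. Spns2, the exporter of sphingosine-1-phosphate, had 4.95, 5.20, 8.28, 9.08 and 8.85, the largest difference of the 23 carriers. The phosphate exporter Xpr1, named after its values were seen, had 10.39, 11.16, 11.69, 12.22 and 12.12. The lower one, the mitochondrial carrier Sfxn5, had 7.999, 7.03, 6.67, 6.25 and 6.58. Of 5 measured sodium pump subunits and carrier partners only the pump subunit Atp1b1 reached 2-fold, with 4.07, 5.09, 7.26, 8.90 and 7.98. It was higher on each array up to day 3, as Slc45a3 was. Of 10 genes for proton and chloride transport 6 were higher by 2-fold or more at day 5 and 0 lower (median 1.56), beside 6.78% higher and 6.56% lower among all measured genes. This list, like the others here, was picked with earlier results of these data known. The largest difference was that of the carbonic anhydrase gene Car2, whose enzyme makes the bicarbonate that Slc4a2 exports, with 3.49, 6.21, 9.61, 10.53 and 10.40.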

How the data were processed

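Per the submitters' processing notes, the deposited log2 values were made by the authors by RMA, using R 3.4.0 and its oligo package. The method corrects background, gives all arrays one distribution by quantiles and summarises probes by median polish, so a shift of all genes cannot be seen, differences near background are compressed and exact ties arise. Per the labels' protocols, RNA was extracted with Trizol and labelled with the Affymetrix WT Pico kit. Neither summary level nor genome build is given in the sources used here.

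Of 41345 rows, 23521 named 1 gene and 1814 several in the platform annotation; only the first were used. The row with the highest mean stood for a gene, for 22180 genes. All 194 members matched RefSeq GRCm38.p6 by Entrez identifier, with 0 symbols changed. Classes followed the carrier families' substrates, and Slc5a5 and 3 genes that encode no carrier were moved by function after the files were read. Members, lists and motifs were chosen with earlier results of these data known. Genes named were the 4 largest differences each way per class and per step, the largest peaks and troughs, class extremes below 2-fold, genes at the filter, members whose rows disagree by 1 or more and a fixed set; from other lists, the largest each way. Counting was tested on simulated data with added differences well past 2-fold, so the test does not cover calls near 2-fold. Python 3.11.15, numpy 2.4.6, pandas 2.3.3 and matplotlib 3.10.9 were used. Alternatives covered filter, size, rows, scaling, days and members.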

Additional observations from a re-analysis of the deposited data

How the results depend on the processing

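No paired analysis was possible because each day had 1 array. No spread between cultures could be estimated, and a value was taken as moved when it shifted by 0.42, the noise of 1 row, or a count by over 1.5 times. Counting at 1.5-fold gave 33 members higher and 30 lower at day 5 against day 0, 17% and 15.5% beside 13.3% and 14% of all measured genes. By step it gave 19 higher and 27 lower for day 1 against day 0, 21 and 11 for day 2 against day 1, 26 and 14 for day 3 against day 2, and 2 and 6 for day 5 against day 3. In the same order all measured genes gave 9.75% and 9.79%, 6.14% and 4.61%, 7.71% and 9.6%, and 1.51% and 1.42%. A size of 1.5 on the log2 scale gave 9 higher and 5 lower at day 5 against day 0, 4.64% and 2.58% beside 3.4% and 2.71% of all measured genes. By step it gave 3 and 5 for day 1 against day 0, 3 and 0 for day 2 against day 1, 1 and 0 for day 3 against day 2, and 0 lower for day 5 against day 3. In the same order all measured genes gave 0.938% and 1.55%, 1.12% and 0.083%, 0.589% and 1.32%, and 0.0083% lower. Fewer or more genes follow from the size itself. Centring on the reference genes gave 3 higher at day 1 against day 0, 0 lower at day 2 against day 1, 5 lower at day 3 against day 2, and 1 higher and 0 lower at day 5 against day 3. Centring on array medians gave 0 lower at both day 2 against day 1 and day 5 against day 3. With the filter at the 75th percentile, day 3 against day 2 had 3 higher and 1 lower, and the median of monocarboxylate and organic ion carriers was 0.66, from fewer genes. Including the 13 genes set aside gave 11 higher at day 1 against day 0, 2 lower at day 2 against day 1 and 2 lower at day 5 against day 3. With day 1 in place of day 0 the nucleoside and vitamin class median was 0.26, and 10 of 54 named members changed sign. Of these, 6 had been past 2-fold: Slc15a3 (0.78), Slc36a1 (0.14), Slc7a7 (1.45), Slc9a9 (1.80), Slco2b1 (0.044) and Slco4a1 (-0.92). The other 4 had been under 2-fold: Slc46a3 (1.87), Slc26a11 (0.70), Slc12a2 (-0.26) and Slc22a13b (-0.034). The cause was not tested. Small class medians changed sign with scaling, with -0.13 for monocarboxylates on the reference genes and 0.0096 for metals on array medians. Of the class and overall medians under all alternatives, 108 moved by less than the noise of 1 row and 2 by more. This says little about how firm the medians are. A change of size cannot alter a median, and centring on the reference genes shifted every one alike, by 0.14. The class medians lay between -0.23 and 0.18, so a shift of under 0.42 can still turn their sign.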

Other observations

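Some carriers appear on the arrays only in rows that name a second gene, so their values cannot be assigned; the 3 pairs below were named after their values were seen. The row of the myo-inositol carrier Slc5a3 and Mrps6 had 7.15, 9.02, 9.01, 9.44 and 9.01 at days 0, 1, 2, 3 and 5, a difference of 1.86 at day 5 that was present at day 1. The row of the zinc exporter Slc30a1 and 1700034H15Rik had 6.24, 5.62, 6.52, 6.96 and 6.98. The pair Slc24a5 and Myef2 had 2 rows that differed in opposite directions at day 5, by 1.08 and -0.94.

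Of the 169 solute carriers below the filter and not set aside, 1 was at least 2-fold higher at day 5 than at day 0 and 0 lower, 3 had values spanning 1 or more, and 58 held the same value at both days. The higher one was the thiamine transporter Slc19a3, named after its values were seen, with 4.16, 4.54, 4.54, 5.55 and 5.24. Its day 5 value lay above the filter while its mean lay below it, so the rule on the mean left it out.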
